A study of Mus musculus with 46 samples.

Results

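The genome-wide binding of CTCF was listed in whole cerebellum and in AgRP neurons of the mouse, and the CTCF peaks of cerebellum that had no counterpart in AgRP neurons are described here. The cerebellum-only peaks were defined as the peaks of the cerebellum list made from 10K nuclei (K stands for 1000, and this is the 10K list), on chromosomes 1 to 19 and X, that overlapped a peak of the cerebellum list made from 50K nuclei (the 50K list) and no peak of the AgRP neuron list made from 3K nuclei. They numbered 16250 of the 56697 distinct peaks of the 10K list, and of the 31614 peaks that overlapped a 50K peak (reproducible peaks). The other 15364 reproducible peaks overlapped an AgRP peak and are called shared. The series profiled AgRP neurons of the arcuate nucleus, the hypothalamic nucleus that senses hunger, by RNA-seq, ATAC-seq and CUT&RUN. All libraries were from male mice, and the CUT&RUN libraries were from untreated animals with free access to food, 1 library per list. The antibody was against CTCF except in 1 library for IRF3, from AgRP nuclei of mice in which AgRP-IRES-Cre switched on IRF3-2D, a constitutively active IRF3. AgRP nuclei were sorted on GFP from the NuTRAP cassette, a tagged ribosomal protein that gathers in the nucleolus and that Cre recombinase made from the Agrp gene (AgRP-IRES-Cre) switches on, in C57BL/6J mice of 6 to 11 weeks, so that a nucleus counted as AgRP by the tag. ATAC-seq was done on sorted AgRP-positive and AgRP-negative arcuate nuclei of fed, untreated mice, and in a separate set on AgRP nuclei of fed mice given vehicle, of mice fasted overnight and given vehicle and of fasted mice given leptin, with 2 libraries per group, each from 4 pooled mice. The strain and age of the cerebellum donors were not given in the sources used here. One further cerebellum list carried 100K nuclei in its title and 200K in its description, and is called the largest-input list.

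CTCF is a zinc-finger protein that binds a long GC-rich motif, stops loop extrusion by cohesin and so sets the borders of chromatin loops and domains, and many of its sites are occupied in most tissues. In CUT&RUN an antibody tethers a nuclease to the protein, and the short DNA fragments that are released mark its sites. ATAC-seq marks open chromatin through the sites where a transposase can insert. Cerebellum is dominated by granule neurons, with Purkinje cells, Bergmann glia and other glia as minor populations, whereas AgRP neurons are a small arcuate population that drives feeding.

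The sequences of some cerebellum-only peaks show the kinds of site that the class held. All were read from the RefSeq genome GRCm38.p6 (the build also called mm10), plus strand, and capitals mark the 12-base CTCF core, written CCANNAGNNGGC or CCGNNAGNNGGC, or on the minus strand its reverse complement. The first pair are the sites with an intact core among the 6 cerebellum-only peaks of highest signal, and both were intronic.
Sycp3, chr10:88426583-88426663: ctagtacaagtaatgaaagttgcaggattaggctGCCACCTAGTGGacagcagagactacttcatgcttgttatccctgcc
Wdr66, chr5:123259102-123259182: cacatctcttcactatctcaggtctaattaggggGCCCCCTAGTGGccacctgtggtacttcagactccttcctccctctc
The next pair come from the same 6 peaks and hold no intact core. The capitals there mark the 12 bases nearest to the summit that differ from the core at 1 of its 8 fixed places.
Sh3bp1, chr15:78903348-78903428: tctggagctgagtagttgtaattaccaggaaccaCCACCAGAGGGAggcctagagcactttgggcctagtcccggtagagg
Lrrc10b, chr19:10436085-10436165: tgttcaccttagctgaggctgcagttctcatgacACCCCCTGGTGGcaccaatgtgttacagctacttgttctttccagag
The next 3, all intronic, are the sites of highest signal outside promoters and exons that hold the commonest core of the cerebellum-only peaks, which lies in soft-masked repeat sequence (see the account of motifs). They were chosen after that core was found.
Tent4a, chr13:69509740-69509820: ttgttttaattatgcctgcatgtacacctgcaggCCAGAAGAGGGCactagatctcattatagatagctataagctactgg
Adgra1, chr7:139861615-139861695: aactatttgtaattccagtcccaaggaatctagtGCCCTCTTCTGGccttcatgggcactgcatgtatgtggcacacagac
Sin3a, chr9:57056373-57056453: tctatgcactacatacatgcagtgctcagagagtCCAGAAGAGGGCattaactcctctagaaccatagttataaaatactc
The last pair are sites whose accessibility differed between AgRP-positive and AgRP-negative nuclei, the first more open in AgRP-positive nuclei and without any core, the second more open in AgRP-negative nuclei.
Snap25, chr2:136699943-136700023: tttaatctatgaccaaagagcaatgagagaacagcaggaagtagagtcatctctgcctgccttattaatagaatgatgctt
Gm11060, chr2:105109067-105109147: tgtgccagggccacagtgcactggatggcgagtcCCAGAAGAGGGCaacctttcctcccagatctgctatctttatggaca
Each site carries the symbol of the nearest start site of a protein-coding gene, which does not say that the gene is controlled from there.

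The cerebellum-only peaks were weaker than the shared peaks in every cerebellum list. Their signal, the fold enrichment over local background in the seventh column of each list, had a median of 6.21 in the 10K list (quartiles 4.67 and 8.98, range 2.11 to 41.3), against 11.8 for the shared peaks (quartiles 8.20 and 15.9). In the 50K list the medians were 7.99 and 15.1, and in the largest-input list, where 88.4% of the cerebellum-only and 97.0% of the shared peaks had a peak, they were 8.73 and 16.1. In the list from 1K nuclei, where only 9.90% and 28.4% had a peak, the medians of those peaks were close, at 3.48 and 3.76. The cerebellum-only peaks were also narrower, with a median of 258 bp against 305 bp. With 1 library per list there is no replicate error and no test of these differences, the read depth of these libraries is unknown, and a weaker peak in whole tissue can come from fewer cells that carry it or from less CTCF per cell, which cannot be told apart.

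**Figure D1:**
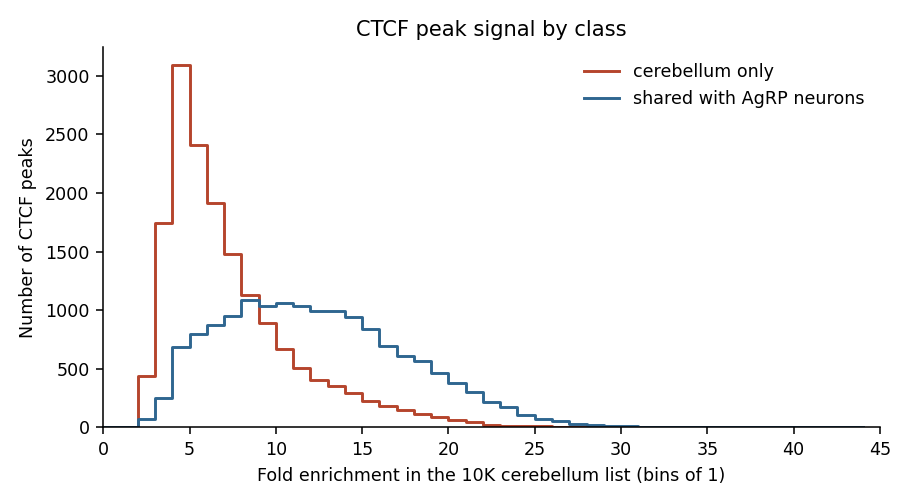
Number of CTCF peaks (y axis) by fold enrichment in the 10K cerebellum list (x axis, bins of 1) for the 16250 cerebellum-only peaks (red) and the 15364 shared peaks (blue); 21 shared peaks lie above 45 and are not drawn. The cerebellum-only peaks pile up near their median of 6.21, and the shared peaks spread around 11.8.

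The highest cerebellum-only signal was 41.3 at chr8:71433088-71433173, a peak of 86 bp with its summit in soft-masked repeat sequence, 27102 bp from the start site of Ankle1, a gene for an endonuclease. The same site had 49.2 in the 50K list, 43.5 in the largest-input list and 31.3 in the list from 1K nuclei (the 1K list), and also a peak in the CUT&RUN list for another protein, IRF3, but no ATAC-seq peak. The second, with 31.3, lay in an intron 3481 bp from the start of Sh3bp1. The others near the top had 30.6 (chr10:88426529-88426808, nearest to Sycp3, a gene of the meiotic synaptonemal complex), 30.1 (chr5:123259003-123259237, nearest to Wdr66), 29.5 (chr11:114912870-114913188, nearest to Cd300lb, a myeloid cell receptor gene) and 28.6 (chr19:10436027-10436246, nearest to Lrrc10b). All 6 had a peak in the 10K and 50K lists by definition, and all 6 also had one in the largest-input list. In the 1K list 4 of them had a peak, and 4 of them overlapped an ATAC-seq peak of AgRP neurons.

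The share of reproducible peaks that were cerebellum-only fell steadily with signal. When the reproducible peaks were ranked by 10K fold enrichment and cut into 10 bins of equal size, it was 86.2% in the lowest bin (fold enrichment up to 4.13), 47.8% in the sixth and 14.2% in the highest (17.5 and above), where 449 cerebellum-only peaks remained. Absence from a list was common within cerebellum too, since only 5978 of the 31614 reproducible peaks (18.9%) had a peak in the cerebellum 1K list. That list held 9.90% of the cerebellum-only peaks and 28.4% of the shared peaks, and within the highest bin it held 34.7% and 50.5%. The AgRP list had 48740 distinct peaks with a median fold enrichment of 3.35, and 41.2% of them had a q value above 0.05. Such peaks made up 28.4% of the 10K list and 69.0% of the 1K list too. The cerebellum-only peaks had a median −log10 q of 6.10 in the 10K list, with a lowest value of 0.0045, so some were themselves weak calls. How many of the 16250 sites were missing from the AgRP list for want of nuclei or reads was not tested. At the edge of the rule, 41 cerebellum-only peaks lay within 20 bp of an AgRP peak (median 10K fold enrichment 4.79), and 23 shared peaks overlapped one by 20 bp or less (5.42). Most were far from the edge: the median distance to the nearest AgRP peak was 12432 bp, and 15014 had none within 1000 bp.

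The cerebellum-only peaks were spread over all chromosomes, at 48.2% (chromosome 3) to 54.1% (chromosome 16) of the reproducible peaks of each. They lay in introns more often and at promoters less often than shared peaks did: 42.1% were intronic, 27.2% lay within 1000 bp of a start site, 26.8% were intergenic and 3.88% exonic, against 32.1%, 32.4%, 32.1% and 3.35% of the shared peaks. The nearest start site of a protein-coding gene was a median of 16107.5 bp away, against 12035 bp for shared peaks. Some genes were nearest to many cerebellum-only peaks, and those given here were picked out after their counts were seen. Auts2, a neurodevelopmental gene, had 20 among its 22 reproducible peaks, and Ntm, which encodes the cell adhesion protein neurotrimin, had 20 of 30. Reep3 had 19 of 22, and Car10 had 16 of 18. Over all reproducible peaks 51.4% were cerebellum-only. An ATAC-seq peak of AgRP neurons overlapped 5 of the 20 near Auts2, 3 of the 20 near Ntm, 2 of the 19 near Reep3 and 2 of the 16 near Car10, beside 28.5% of all cerebellum-only peaks away from promoters.

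The CTCF core was less frequent in the cerebellum-only peaks than in the shared peaks, with a wider gap at low than at high signal. An intact core, searched on both strands within 150 bases of the 10K summit, was found in 3065 of 16250 cerebellum-only peaks (18.9%) and in 5825 of 15364 shared peaks (37.9%). Windows of the same length centred on the ATAC-seq peaks of AgRP neurons held it in 6.45% of 102156 cases, and 4.58% of 32851 RefSeq promoters of GRCm38, in windows of about that length, held it. Cores that differ at no more than 1 of the 8 fixed places were found in 64.5% of the cerebellum-only peaks, 83.9% of the shared peaks and 38.9% of the ATAC-seq windows. In the lowest bin of signal the intact core was present in 9.14% of the cerebellum-only and 23.3% of the shared peaks, and in the highest bin in 48.6% and 52.4%. Where present it sat at the summit: it lay within 30 bases of it in 81.6% of the cerebellum-only peaks with a core and in 88.3% of such shared peaks, at a median distance of 7 and 6 bases. Cerebellum-only peaks with an intact core had a median 10K fold enrichment of 8.85, and those without one 5.83. A window without these letters says nothing about whether CTCF was bound there.

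**Figure D2:**
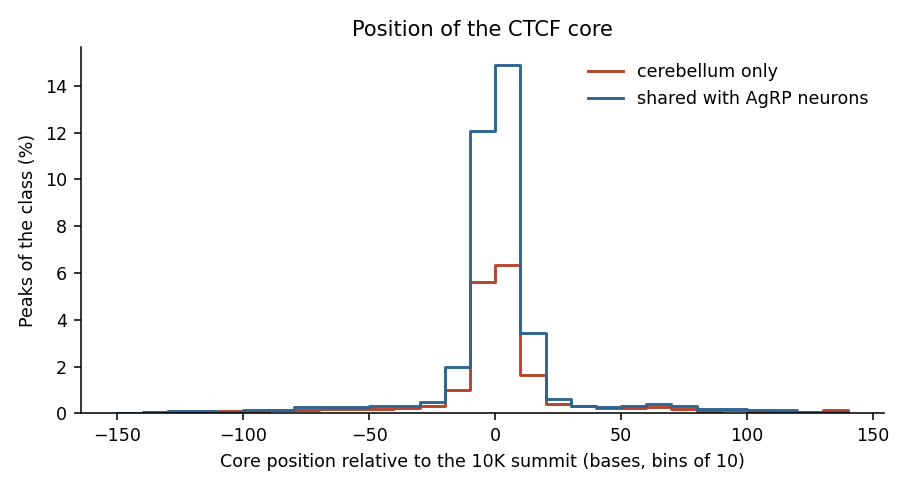
Share of the peaks of each class (y axis, %) whose intact CTCF core lies at a given distance from the 10K summit (x axis, bases, bins of 10), for cerebellum-only (red) and shared (blue) peaks. Both classes peak at the summit, and the shared peaks are higher there because 37.9% of them hold a core, against 18.9% of the cerebellum-only peaks.

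The core itself differed in its free places, and 1 core in repeat sequence stood out. CCAGAAGAGGGC, shown above at Tent4a, Adgra1 and Sin3a, was the commonest core of the cerebellum-only peaks, in 506 of the 3065 with a core (16.5%), and was carried by 229 of the 5825 shared peaks with a core (3.93%). Of the 506 copies 505 were soft-masked, that is, marked as interspersed or simple repeat in the reference genome, as were 97.8% of the copies in shared peaks. Among all other cores 9.07% were soft-masked in cerebellum-only peaks and 5.68% in shared peaks. As background, rodent B2 short interspersed elements are known to have spread CTCF motifs through the mouse genome, but the reference used here does not name repeat families. The excess was present at every level of signal, from 27.7% against 11.8% of cores in the lowest bin to 7.80% against 2.25% in the highest. In windows of the same length this core was present in 3.14% of the cerebellum-only peaks, 1.53% of the shared peaks and 0.275% of the ATAC-seq windows, and it was in 0.247% of the promoters. The sites with it had a median 10K fold enrichment of 7.51, and 83 of the 506 (16.4%) overlapped an ATAC-seq peak of AgRP neurons, among them the 3 shown. At the cerebellum-only peaks as a whole, soft-masked cores were in an ATAC-seq peak in 19% and other cores in 45.1% of cases. How reads that map to several places were treated in each assay was not given in the sources used here, and the part of mapping in these shares was not tested. Over all cores, C in the fourth place was found in 40.1% of the cerebellum-only and 58.1% of the shared peaks and G in 51.3% and 36.6%. In the upper 5 bins of signal C was still at 48.6% against 60.0%.

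Fewer of the cerebellum-only sites than of the shared sites were open in AgRP neurons, at every level of CTCF signal. An ATAC-seq peak of AgRP nuclei from the fed, fasted and leptin-treated set, with a mean over 1 CPM (counts per 1000000), overlapped 7212 of the 16250 cerebellum-only peaks (44.4%) and 12205 of the 15364 shared peaks (79.4%). In the separate set of AgRP-positive and AgRP-negative nuclei the shares were 39.0% and 68.3%. In the lowest bin of 10K fold enrichment 34.2% of the cerebellum-only and 69.8% of the shared peaks overlapped a peak of the first set, and in the highest bin 56.1% and 85.1%. Promoters and other sites behaved differently. Of 4426 cerebellum-only peaks at promoters 86.8% overlapped such a peak, against 96.7% of shared promoter peaks. Of the 11824 away from promoters 28.5% did, against 71.1% of the shared peaks away from promoters. Peaks with an intact core were open less often than those without one in both classes, at 38.8% against 45.7% of the cerebellum-only and 73.5% against 83.0% of the shared peaks. Among the cerebellum-only peaks, those whose core was not soft-masked were at 45.1%. Peaks with a core were also less often at promoters, at 14.4% against 30.2% of the cerebellum-only and 15.3% against 42.9% of the shared peaks. The part of promoters in the difference by core was not tested. The regions come from 1 CTCF library per list and are not replicates of a condition, so these shares carry no test.

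**Figure D3:**
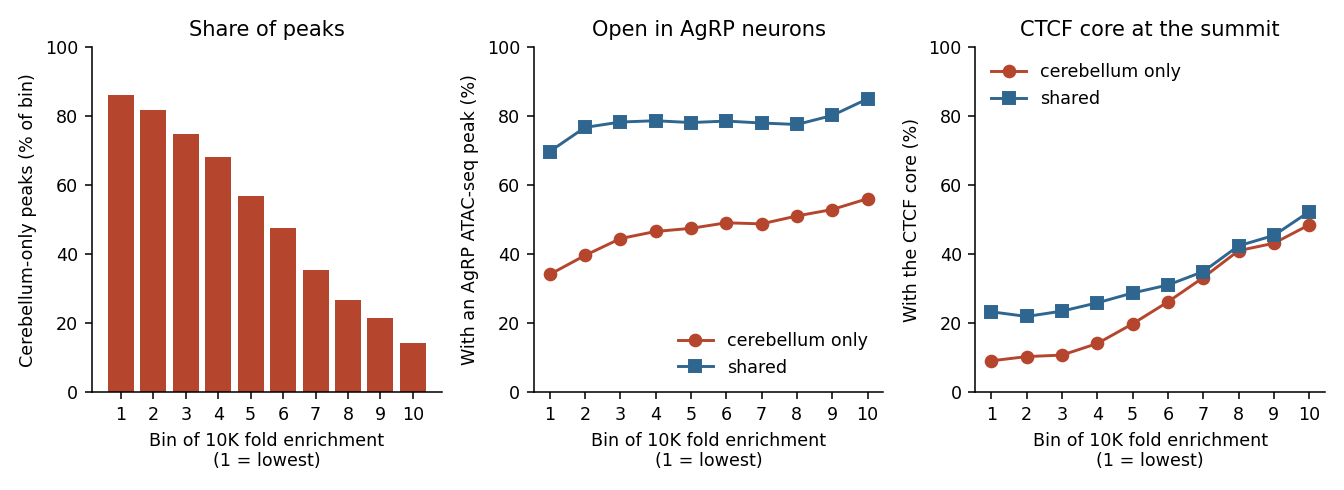
The left plot shows the share of reproducible CTCF peaks that were cerebellum-only (y axis, %) in each bin of 10K fold enrichment (x axis, 1 the lowest), falling from 86.2% to 14.2%. The middle and right plots show, for cerebellum-only (red circles) and shared (blue squares) peaks, the share with an ATAC-seq peak of AgRP neurons and the share with an intact CTCF core, and the curves stay apart for ATAC-seq while those for the core come close in the upper bins.

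The genes with a cerebellum-only peak at their promoter were mostly expressed in AgRP neurons. Among 3365 protein-coding genes with such a peak and no shared peak at the promoter, 93.1% had a mean over 1 TPM (transcripts per 1000000) in ribosome-bound RNA of AgRP neurons from fed mice (3 libraries), with a median of 35.1 TPM. For 4140 genes with a shared and no cerebellum-only promoter peak these values were 94.4% and 36.0 TPM, and for all 19265 protein-coding genes with counts 66.0% and 9.21 TPM.

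Cerebellum-only peaks stood at the promoters of 9 granule neuron genes. Within 1000 bp of a start site of the 17 granule neuron genes of the marker list there were 13 reproducible CTCF peaks, of which 10 were cerebellum-only. Over all promoters 4426 of 9409 reproducible peaks were cerebellum-only. The highest signal was at En2, a homeobox gene that patterns the cerebellum (chr5:28165434-28165721, 79 bp from the start site, 10K fold enrichment 11.4), followed by Zic1, a zinc-finger factor of granule cell precursors (chr9:91365712-91366144, 7.44). Neurod1, a basic helix-loop-helix factor needed for granule cell survival, had 6.84 (chr2:79456610-79457011). Etv1, an ETS factor of maturing granule neurons, had 6.48 (chr12:38778603-38778813), and was the one of these 5 with an intact core, 90 bases from the summit. Cbln3, a cerebellin made in granule neurons, had 6.04 (chr14:55884253-55884451). The other genes were Gabra6, a granule neuron GABA-A receptor subunit, with 2 peaks and up to 5.37, Fat2, a protocadherin of granule cells, with 4.99, Pax6 with 4.70 and Zic2 with 3.95. Of the 10 peaks those at Etv1 and Pax6 overlapped an ATAC-seq peak of AgRP neurons in the 3 states, against 86.8% of all cerebellum-only promoter peaks. In ribosome-bound RNA of AgRP neurons from fed mice En2 was at 0.126 ± 0.0150 TPM (SD, n = 3), Neurod1 at 0.103 ± 0.178, Cbln3 at 0.529 ± 0.353 and Fat2 at 0.00442 ± 0.00766, and Gabra6 had no count in any of the 3 libraries, whereas 9 of the 17 genes of the list had a mean over 1 TPM. Pax6, whose promoter peak overlapped an ATAC-seq peak, was at 0.102 ± 0.0529 TPM. Zic1 at 19.1 ± 5.89, Etv1 at 16.3 ± 5.64 and Zic2 at 8.02 ± 2.76 TPM were above these low values. The highest of the list were Calb2, a calcium-binding protein gene, at 361.7 ± 7.21 TPM and Cbln1, a cerebellin gene, at 94.9 ± 23.2 TPM, and the CTCF peaks at both promoters were shared. So was the peak at the promoter of Barhl1, a gene at 1.71 ± 0.696 TPM.

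Within 50000 bp of the marker genes of each cell type the share of cerebellum-only peaks was highest for granule neurons. It was 42 of 60 reproducible peaks for granule neuron genes, 16 of 29 for oligodendrocyte genes, 11 of 20 for microglia genes, 9 of 22 for Purkinje cell genes, 7 of 18 for Bergmann glia and astrocyte genes and 15 of 41 for genes of the arcuate nucleus and hypothalamus, beside 51.4% of all reproducible peaks. Of the 42 near granule neuron genes 8 overlapped an ATAC-seq peak of AgRP neurons (19%), against 10 of the 15 near arcuate genes (66.7%) and 44.4% of all cerebellum-only peaks. All 6 reproducible peaks near En2, all 4 near Gabra6 and all 4 near Fat2 were cerebellum-only, and 0 of these overlapped an ATAC-seq peak of AgRP neurons. At Purkinje cell promoters, peaks stood at Esrrb, a nuclear receptor gene (chr12:86421554-86421642, 4.13), and at 2 places of Lhx1, a LIM homeobox gene (chr11:84525465-84525676, 3.91, and chr11:84522651-84522755, 2.82). These were weak calls, with a −log10 q in the 10K list of 2.73 at Esrrb and of 1.99 and 0.45 at Lhx1. The Esrrb peak and the second Lhx1 peak had no counterpart in the largest-input list. The only reproducible promoter peak among the 28 arcuate genes was at Agrp itself, and it was shared. Near arcuate genes the strongest cerebellum-only peak was at chr12:3926028-3926514, 28655 bp from Pomc, the gene of the melanocortin precursor, with a fold enrichment of 17.2 and an intact core 11 bases from the summit. Its ATAC-seq peak had 1.16 and 2.42 CPM in AgRP-positive and 2.96 and 1.42 CPM in AgRP-negative nuclei, and these overlapped. Next came 12.8 in an exon 29625 bp from Tac2, a tachykinin gene, and 12.7 in an intron 45126 bp from Ghrh, the gene of growth hormone-releasing hormone.

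The strongest cerebellum-only peak near a gene of any list lay in an intron 15728 bp from Sox10, a master regulator of oligodendrocytes (chr15:79148698-79148895). Its fold enrichment was 22.6 in the 10K list and 25.1 in the 50K list, and no ATAC-seq peak lay there. Near microglia genes the highest was 13.7, 29005 bp from Cx3cr1, the fractalkine receptor gene, also without an ATAC-seq peak. Near genes of Bergmann glia and astrocytes it was 9.69, 27979 bp from Gfap, the gene of the astrocyte filament protein, at the promoter of another gene and in an ATAC-seq peak of both sets. Distances between list genes overlap, so that a peak can count for more than 1 gene.

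**Figure D4:**
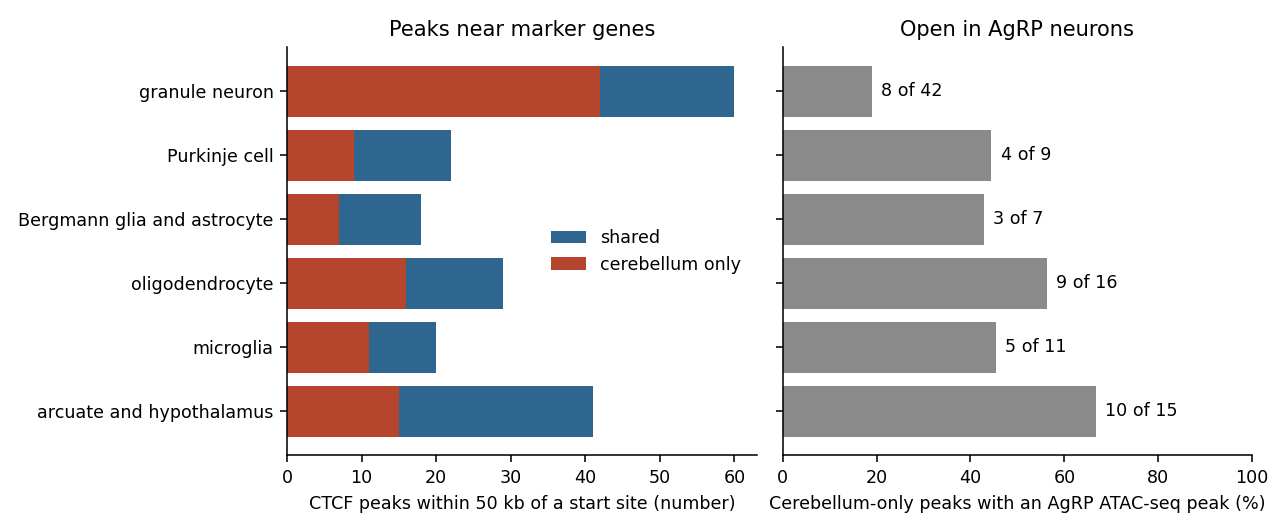
Left, number of reproducible CTCF peaks (x axis) within 50 kb of a start site of the marker genes of each cell type, split into cerebellum-only (red) and shared (blue). Right, share of those cerebellum-only peaks that overlap an ATAC-seq peak of AgRP neurons (x axis, %), with the counts; granule neuron genes have the largest number of cerebellum-only peaks (42) and the lowest open share (8 of 42), and the right-hand values range up to 10 of 15 for arcuate genes.

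Where AgRP-positive and AgRP-negative arcuate nuclei had an ATAC-seq peak at a cerebellum-only CTCF site, more of these peaks were lower than higher in AgRP-positive nuclei. ATAC-seq counts were compared over all 66560 peaks with a mean over 1 CPM (edgeR quasi-likelihood test, 2 libraries per group), and calls needed a Benjamini-Hochberg adjusted p (FDR) below 0.05 with a log2 difference of 0.5 or more in size. Of the 5836 ATAC-seq peaks at cerebellum-only and not at shared CTCF peaks, 226 were higher in AgRP-positive nuclei (3.87%) and 961 lower (16.5%), whereas of all peaks tested 23.9% were called higher and 15.6% lower. The share called lower was thus near that of all peaks and the share called higher was below it. Their median log2 fold change was -0.23 (quartiles -0.48 and -0.02), against -0.000337 for all peaks. The 10053 ATAC-seq peaks at shared and not at cerebellum-only CTCF peaks had 183 higher (1.82%) and 1407 lower (14%) with a median of -0.27, so shared sites had a low share of higher calls too. The levels differed as well: the median was 17.8 CPM at cerebellum-only sites, 11.5 CPM at shared sites and 4.88 CPM for all peaks, and the part of level was not tested. At promoters 30 of 3390 peaks at cerebellum-only sites were higher and 375 lower, and away from promoters 196 of 2446 were higher and 586 lower. Scaling by library size alone gave 320 higher and 591 lower and moved the median of all peaks from -0.000337 to 0.16 and that at cerebellum-only sites from -0.23 to -0.07, so lower calls outnumbered higher calls under both scalings but by a different ratio. Without the first AgRP-negative library 144 were higher, and DESeq2 called 146 higher. AgRP-negative nuclei are titled as neurons, but they were the GFP-negative arcuate nuclei of the sort, for which no neuronal marker is described. The paper reports less open chromatin in AgRP-positive nuclei at oligodendrocyte and tanycyte marker genes. The AgRP-negative nuclei are not of cerebellum.

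The 4 largest increases among peaks whose libraries did not overlap were these. Near 4930505A04Rik (chr11:30433315-30433792) the level was 9.24 and 8.08 CPM in AgRP-positive and 0.739 and 0.592 CPM in AgRP-negative nuclei. The log2 fold change was 3.68 with an SE of 0.50 and an edgeR FDR of 3.74e-12. At chr2:136699800-136700202, 13470 bp from Snap25, a gene of the synaptic vesicle fusion machinery, it was 10.8 and 8.67 against 0.862 and 0.948 CPM, which is 3.41 on the log2 scale (SE 0.45, FDR 8.28e-13). At chr1:166800944-166801606, with Fmo9 as the nearest gene 119541 bp away, it was 17.5 and 17.3 against 1.97 and 1.54 CPM, and at chr7:83763486-83763965, nearest to the cytokine gene Il16, 7.73 and 9.34 against 0.493 and 1.78 CPM. By the rule of choice both AgRP-positive libraries were above both AgRP-negative libraries at each. None of these sites held an intact core. All of these CTCF peaks were weak or moderate, at 3.28 (near 4930505A04Rik) to 6.79 (near Fmo9) in the 10K list.

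The 4 largest decreases had between 0.178 and 2.22 CPM in AgRP-positive nuclei. At chr11:19019856-19020801, nearest to Meis1, a homeobox gene, the level was 2.22 and 1.92 CPM in AgRP-positive and 17.6 and 19.5 CPM in AgRP-negative nuclei, which is -3.16 on the log2 scale (SE 0.30, FDR 2.35e-24). At chr2:105108742-105109149, nearest to Gm11060, it was 0.800 and 1.33 against 10.6 and 9.71 CPM, or -3.22 on the log2 scale (SE 0.40, FDR 5.78e-14). At chrX:61722216-61722706, nearest to Ldoc1, a retrotransposon-derived gene, it was 1.16 and 1.58 against 12.8 and 13.6 CPM. At chr1:126925541-126925751, nearest to Nckap5, it was 0.178 and 0.333 against 2.96 and 3.55 CPM. None of these 4 CTCF sites had an ATAC-seq peak in the separate set of AgRP nuclei in 3 states, and all 4 with an increase had one. The Meis1 site had the highest CTCF signal of the 8, with 9.19 in the 10K list.

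Of the 5 granule neuron promoters described with coordinates, 3 had an ATAC-seq peak in this set, and all 3 were lower in AgRP-positive nuclei. En2 had 1.33 and 1.08 CPM in AgRP-positive and 3.82 and 4.15 CPM in AgRP-negative nuclei (log2 fold change -1.72, SE 0.52, FDR 0.00383). Neurod1 had 2.49 and 2.08 against 6.04 and 6.40 CPM (-1.44, SE 0.39, FDR 0.00111), and Etv1 25.6 and 20.6 against 42.0 and 32.6 CPM (-0.69, SE 0.16, FDR 8.94e-05). Over all cerebellum-only sites within 50000 bp of granule neuron genes, 10 ATAC-seq peaks were tested, of which 5 were lower and 0 higher, with 15.6% of all peaks called lower. For Bergmann glia and astrocyte genes 2 of 4 were lower, for Purkinje cell genes 1 of 2 was lower, and 0 were higher for either list. For oligodendrocyte genes 1 of 7 was higher and 0 lower, and 0 of 5 for microglia genes and 0 of 6 for arcuate genes were called in either direction.

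**Figure D5:**
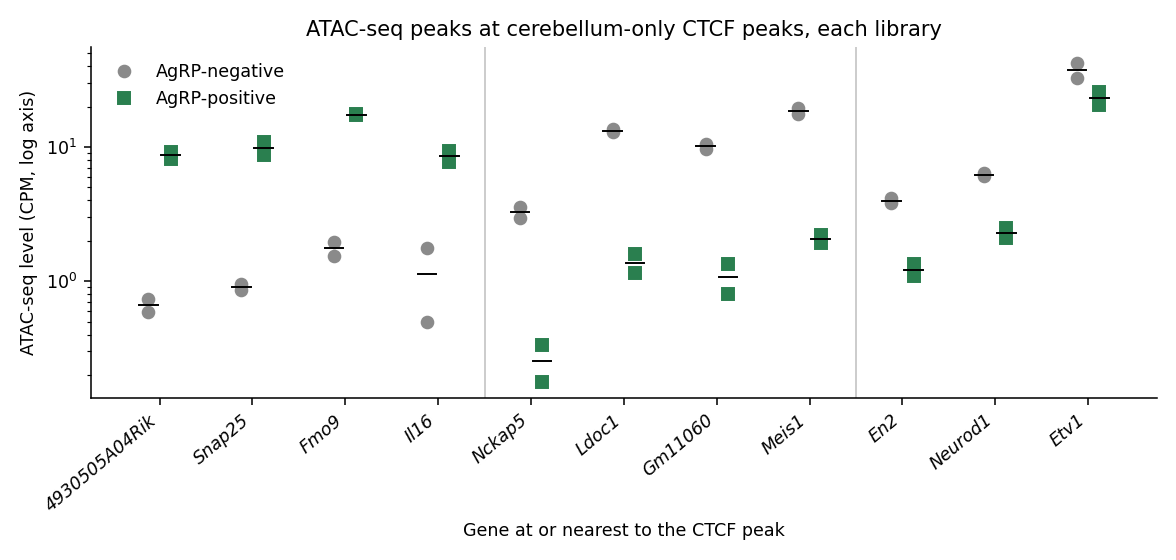
ATAC-seq level (y axis, CPM, log axis) in each of the 2 AgRP-negative (grey circles) and 2 AgRP-positive (green squares) libraries at ATAC-seq peaks on cerebellum-only CTCF sites, named on the x axis by the gene at or nearest to the site, with black bars for the group means. The first 4 are the largest increases, the next 4 the largest decreases and the last 3 the promoters of En2, Neurod1 and Etv1, where all AgRP-positive libraries lie below the AgRP-negative ones.

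Few ATAC-seq peaks at cerebellum-only sites changed with the feeding state in AgRP nuclei. Fasting was compared with feeding over 102237 peaks in 1 model of the 3 states with 2 libraries each, at the same thresholds. Of 6680 peaks at cerebellum-only sites 206 were higher after fasting (3.08%) and 359 lower (5.37%), with 18.1% and 8.88% of all peaks called, and their median log2 fold change was -0.24. Without the first fed library 106 were higher, and without the first or the second fasted library 167 and 154 were lower. Of 11758 peaks at shared sites 110 were higher and 585 lower, with a median of -0.30. Leptin was compared with fasting in the same model, so both comparisons share the fasted libraries. At cerebellum-only sites 24 were higher after leptin (0.359%) and 18 lower (0.269%), with 2.41% and 0.669% of all peaks called, and at shared sites 19 and 10. With the replicate number as a block the counts after leptin were 36 higher and 43 lower. Leaving out 1 library moved these small counts. Without the first or the second fasted library 6 and 13 were higher and 0 and 31 lower, without the first or the second leptin library 8 and 9 were higher and 7 and 0 lower, and without either fed library 33 were lower.

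Of the 8 named ATAC-seq peaks only the increases had a counterpart in the set of 3 states. Among these the one near Snap25 was called with fasting. In the set of 3 states it had 4.28 and 7.02 CPM in fed, 24.6 and 18.9 CPM in fasted and 28.5 and 27.2 CPM in leptin-treated nuclei, and the fed libraries were below all others (log2 fold change with fasting 1.87, FDR 0.000143, and with leptin against fasting 0.36, FDR 0.524). The one near Fmo9 had 25.3 and 23.0 CPM in fed, 15.6 and 24.6 CPM in fasted and 37.2 and 32.6 CPM in leptin-treated nuclei (0.79 with leptin, FDR 0.0476), with both leptin libraries highest. Near 4930505A04Rik and Il16 the FDR was 0.766 and 0.536 for fasting.

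A second CUT&RUN list, for the transcription factor IRF3 in AgRP nuclei that expressed IRF3-2D, overlapped 12.2% of the cerebellum-only and 37.6% of the shared CTCF peaks. The share rose with CTCF signal from 4.62% to 25.2% of the cerebellum-only peaks and from 16.2% to 44.9% of the shared peaks between the lowest and the highest bin. It was 22.1% for cerebellum-only peaks with an ATAC-seq peak of AgRP neurons and 4.28% for those without one. It was 1 library without a replicate.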

How the data were processed

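CTCF was measured by CUT&RUN in 5 libraries (AgRP nuclei and 4 inputs of whole cerebellum), and the deposited narrowPeak lists give per peak a fold enrichment ratio, a −log10 p and a −log10 q, and a summit. The submitters' processing notes name mm10, Bowtie2, MACS2, bedtools and SEACR for the series, and which caller, control and filter made these lists was not given in the sources used here. Rows that repeated an interval with another summit were merged, keeping the highest fold, and a shared base counted as overlap. The cerebellum-only peaks and the gene lists were chosen with earlier results of these data known. Peaks were annotated with GENCODE M21 for start sites and features, and sequence was read from GRCm38, in which all list ends lay within chromosome lengths. No sequence was taken from chromosome 18. Peaks named were the 6 of highest 10K fold outside that chromosome, the 4 largest increases and 4 largest decreases among called ATAC-seq peaks whose libraries did not overlap, and up to 5 per marker list within 1000 bp of a start site, or else within 50000 bp.

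ATAC-seq counts per peak were deposited as raw counts, made by the authors with Bowtie2, MACS2 and Bedtools, with 8263234 to 17190963 counts per library in peaks. They were tested with edgeR 4.0.16 in R 4.3.3 (glmQLFit and glmQLFTest, TMM, Benjamini-Hochberg over all peaks with a mean over 1 CPM), and with DESeq2 1.42.0 as an alternative. On data simulated for AgRP-positive against AgRP-negative nuclei the test recovered 98 of 100 peaks changed by 3 and 25 of 100 changed by 1 on the log2 scale. For the fasted against fed comparison it recovered 99 and 7 of 100, and for leptin against fasted 100 and 5. In each simulation only these peaks were changed, and 1 common dispersion of counts was set for all peaks. Many more peaks were called in the real data, so these counts do not give the recovery there. AgRP-positive and AgRP-negative nuclei came from the same pooled tissue, per the study's methods, and same-numbered libraries correlated in their deviations from the group means (r = 0.113). The fit reported for this comparison had no term for pairing. With the replicate number as a block 250 peaks at cerebellum-only sites were higher and 1050 lower, with 25.9% and 17.4% of all peaks called. The IRF3 list was deposited with total and maximum signal per region, made by the authors with SEACR, and only its intervals were used. RNA counts per gene (25581041 to 38937168 per library), deposited by the authors from HISAT2 and featureCounts, were converted to TPM with the deposited gene lengths. The log2 CPM tables were not used. Where samples are separate pools of mice, p-values measure the spread between these pools. Some of the genes nearest to most cerebellum-only peaks are not reported here.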

Additional observations from a re-analysis of the deposited data

How the results depend on the processing

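Requiring −log10 q of at least 5 in both cerebellum lists left 9033 cerebellum-only peaks, with a median 10K fold enrichment of 8.54 and the CTCF core in 26.2%, and requiring a peak in the 1K list left 1608. Other definitions of the class, from also requiring a peak in the largest-input list to counting each listed summit (chosen after seeing the data), gave 14371 to 18725. The share with an ATAC-seq peak of AgRP neurons was 42.4% with the summit inside it, 43.1% without cerebellum-only peaks within 1000 bp of an AgRP peak and 46.3% without the filter on low counts. The share with the core was 17.8% within 100 bases, 24.6% with any base in the third place and 7.60% with C in the fourth place. In AgRP-positive against AgRP-negative nuclei DESeq2 called 146 peaks higher, and scaling by library size alone 591 lower. Leaving out 1 library gave 144 to 202 higher and 659 to 888 lower. For fasting these ranges were 106 to 185 and 154 to 305, with the fewest lower calls without the second fasted library, and for leptin 6 to 31 and 0 to 33. In the leptin comparison the replicate block gave 43 lower, and it moved no other count by more than 1.5 times. In the 3 states the labels give numbers without a shared origin, and same-numbered libraries correlated at -0.00862 to 0.193. The 8 named ATAC-seq peaks kept their direction and call under each alternative run for AgRP-positive against AgRP-negative nuclei. No test bears on the CTCF signals, since each list is 1 library of unknown depth. In the leptin comparison 304 of 6680 peaks at cerebellum-only sites had an unadjusted edgeR p under 0.05, beside 14198 of all 102237 peaks. DESeq2 gave 16 higher and 13 lower at cerebellum-only sites.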
